A study of Mus musculus with 10 samples.

Results

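The genes described here are the thyroid hormone receptors Thra and Thrb, the activating deiodinase Dio2, the hormone-binding protein Crym and the hormone-responsive genes Klf9, Hr and Nrgn. They were chosen by symbol, as every probe set whose array annotation carries one of these 7 symbols, which gave 7 of 12393 genes and 17 of the 22626 probe sets that are not array controls. Brain RNA of C57BL/6 mice, an inbred laboratory strain, was hybridised to 10 Affymetrix MOE430A arrays, short-oligonucleotide arrays that read a transcript with 1 or more probe sets. At 8 weeks of age 2 arrays were labelled male and 2 female, and at 1 week 3 were labelled male and 3 female. The labels name age and sex as the factors of interest, mention no treatment, and do not say that the brains came from separate animals, so p-values measure the spread between these samples.

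Thyroid hormone acts through nuclear receptors that sit on DNA with a retinoid X receptor as partner, repress transcription with bound corepressors when hormone is absent and activate it when hormone is bound. In brain, the circulating prohormone thyroxine is converted to the active hormone triiodothyronine by the Dio2 enzyme, made mainly by astrocytes and by tanycytes of the hypothalamus. In rodents the hormone is known for its effects on the timing of myelination, cerebellar maturation and neuronal differentiation in the first weeks after birth.

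Deposited intensities differed in brightness between arrays, with trimmed means from 139 to 319, and were quantile-normalized before testing. Levels below are normalized intensities. Changes are log2 differences, 8 weeks minus 1 week, ± SE, on the scale of log2(intensity + 24), which understates the change of dim probe sets. Each is therefore measured against the array's other probe sets. In the sex-specific transcripts Xist, which silences an X chromosome, and Eif2s3y, which is Y-linked, 4 of the 6 arrays at 1 week opposed their sex label and 1 more carried both, while 0 of the 4 at 8 weeks did. Arrays are therefore named by label. Calls of named genes that were lost without the 4 opposed arrays, or without all 5 that did not match, are given beside them. Those fits had age as their only term and kept 2 and 1 arrays at 1 week, so in the second the spread came from the 8-week arrays alone and the lone array was assumed to vary like them. Summed marker intensities also varied with age and array. Astrocyte markers (10 genes) summed to between 14658 and 15772 at 8 weeks and between 7025 and 9956 at 1 week, oligodendrocyte markers (8 genes) to between 14115 and 18370 against 2391 to 11499, and cerebellar neuron markers (8 genes) to between 5247 and 19451 against 2456 to 8033. Forebrain neuron markers (4 genes) summed to between 994 and 1169.8 against 376 to 1056, and pituitary markers (7 genes) to between 1059 and 13556 against 334 to 2712. Of the 4 forebrain markers 2 rose, 1 fell (Neurod6, -0.95 ± 0.22) and 1 did not pass, so their sum does not describe each of them. Among all genes tested 21.9% rose and 24.0% fell. None of the listed markers of neurons or glia stood at 0. In these bulk samples fewer cells of a type and less RNA per cell cannot be told apart.

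Promoter windows, from 250 bases before to 50 bases after the annotated start, were at hand in RefSeq (GRCm38.p6) for 4 of the 7 genes. Those of Klf9, Dio2 and Thrb are shown because these genes were higher at 8 weeks; Thrb has a pair of annotated starts, and the single Thrb probe set cannot be assigned to either. Capitals mark the receptor-binding hexamer AGGTCA, the GC box GGGCGG, the cAMP response element TGACGTCA and the TATA box TATAAA, each searched on both strands.
Klf9, chr19:23140976-23141275, plus strand: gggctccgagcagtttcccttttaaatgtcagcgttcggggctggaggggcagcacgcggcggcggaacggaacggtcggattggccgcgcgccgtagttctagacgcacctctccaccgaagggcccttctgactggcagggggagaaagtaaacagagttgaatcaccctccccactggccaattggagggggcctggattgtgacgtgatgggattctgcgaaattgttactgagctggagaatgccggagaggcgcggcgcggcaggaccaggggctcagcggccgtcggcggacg
Dio2, chr12:90738989-90739288, minus strand: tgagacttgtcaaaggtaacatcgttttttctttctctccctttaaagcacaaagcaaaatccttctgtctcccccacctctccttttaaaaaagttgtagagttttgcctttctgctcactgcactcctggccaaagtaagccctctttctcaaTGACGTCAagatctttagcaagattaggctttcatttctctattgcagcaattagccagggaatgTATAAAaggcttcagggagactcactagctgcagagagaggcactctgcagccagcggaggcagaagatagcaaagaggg
Thrb, upstream start, chr14:17660710-17661009, plus strand: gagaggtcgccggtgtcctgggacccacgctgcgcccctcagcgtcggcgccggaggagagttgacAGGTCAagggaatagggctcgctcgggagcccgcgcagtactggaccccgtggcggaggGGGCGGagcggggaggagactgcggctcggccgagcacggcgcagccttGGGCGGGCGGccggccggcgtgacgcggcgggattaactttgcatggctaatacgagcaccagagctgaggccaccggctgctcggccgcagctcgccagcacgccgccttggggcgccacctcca
Thrb, downstream start, chr14:17981394-17981693, plus strand: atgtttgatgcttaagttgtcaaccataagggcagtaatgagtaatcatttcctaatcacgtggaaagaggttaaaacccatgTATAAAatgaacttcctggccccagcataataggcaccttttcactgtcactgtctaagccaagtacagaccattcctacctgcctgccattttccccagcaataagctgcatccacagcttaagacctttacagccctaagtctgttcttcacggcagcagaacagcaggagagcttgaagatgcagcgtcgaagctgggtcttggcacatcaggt
The upstream Thrb window holds 1 hexamer, at bases 67 to 72, and 3 GC boxes, of which the last pair overlap. The Dio2 window holds a cAMP response element at bases 156 to 163 and a TATA box at bases 221 to 226, and the downstream Thrb window a TATA box at bases 84 to 89. The Klf9 window holds none of these letters, and the Nrgn window, not shown, holds 1 GC box. Among all 32851 RefSeq promoter windows of this length, 16.3% hold AGGTCA, 35.7% GGGCGG, 1.79% TGACGTCA and 13.6% TATAAA. The direct repeat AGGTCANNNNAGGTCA, the classical receptor element, occurs in 0 of the member windows and in 0.0152% of all windows. Such matches describe letters only.

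Between the ages, Klf9, Dio2, the brighter Hr probe set and, narrowly, Thrb were higher at 8 weeks, while Thra and Crym were lower and Nrgn did not pass. Of the 17 probe sets, 14 passed the filter on dim probe sets and were tested, and the 3 left out were all of Klf9. Of those 14, 9 rose, 3 fell and 2 did not pass, at a limma adjusted p under 0.05. Among all 13576 probe sets tested, 46.0% passed (22.0% rose and 24.0% fell). The arrays of the ages did not overlap in 9 of the 14, with 8 above and 1 below, where 35.4% of all probe sets did not overlap and 17.1% lay above. Probe sets of 1 gene are not separate members, and most of those that rose or lay above were of Klf9 and Dio2. By gene, 3 of the 7 had only higher calls among their tested probe sets. Of all 8148 genes, read at their brightest probe set, 21.9% rose. Over all probe sets the median was -0.02. The plot of values by array and the plot of changes show each tested probe set.

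**Figure D1:**
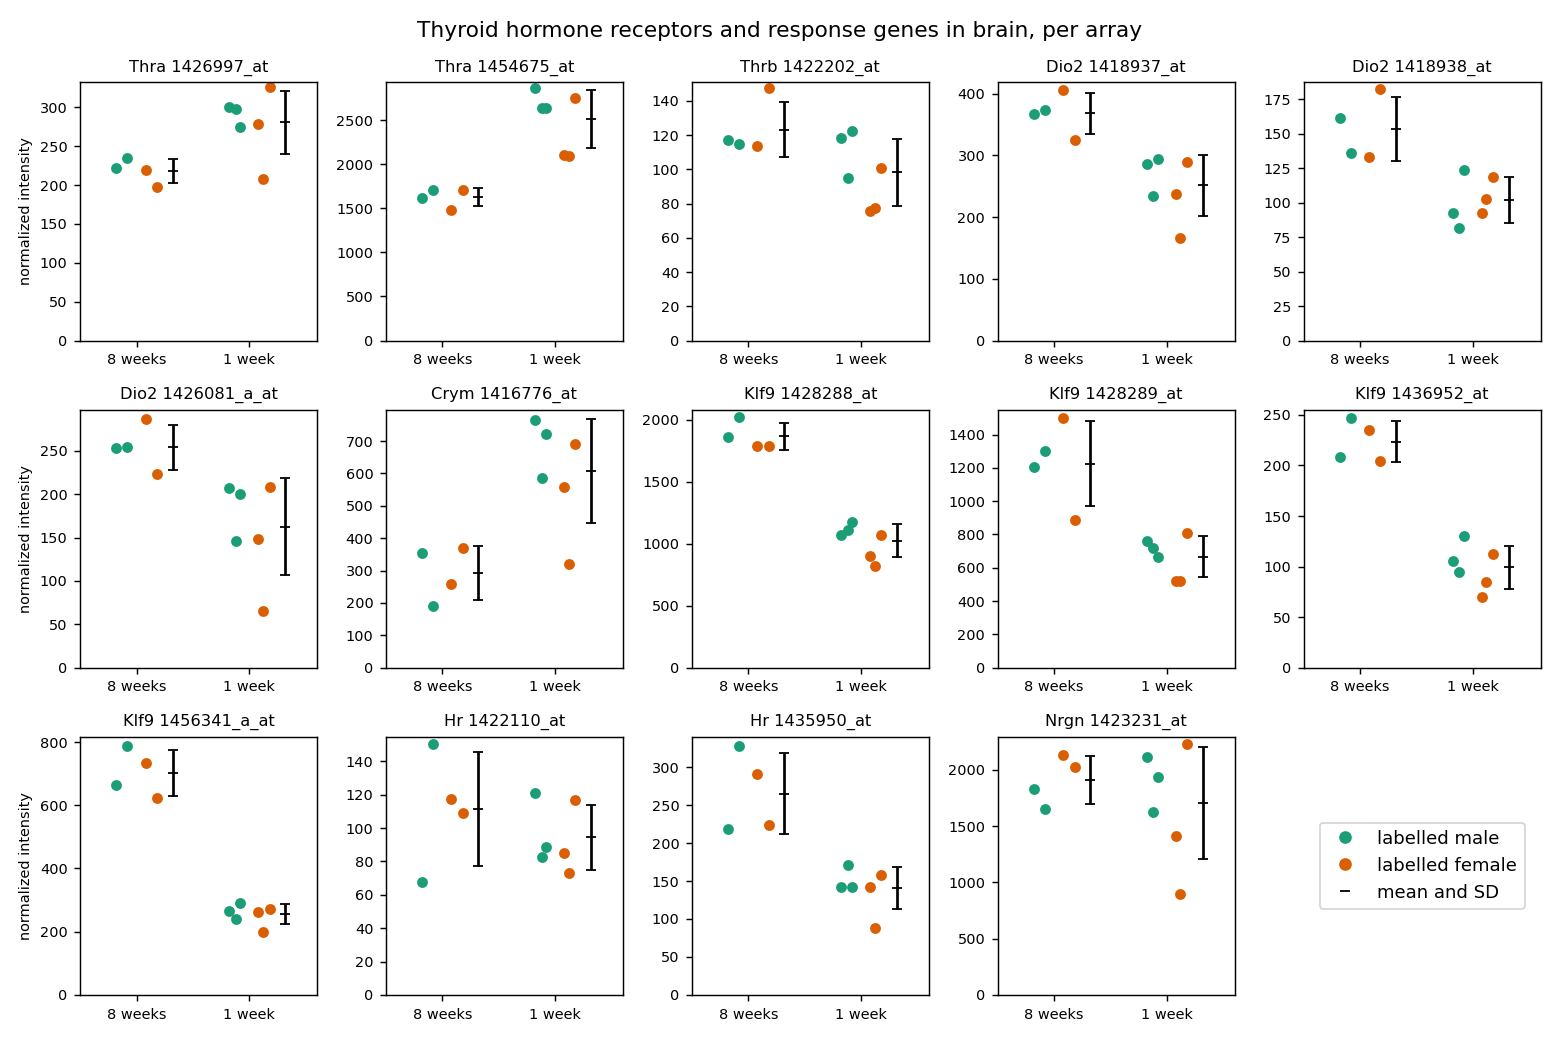
Normalized intensity (linear axes from 0) of the 14 tested probe sets in the 4 arrays at 8 weeks and the 6 at 1 week, a point per array coloured by labelled sex, with mean and SD beside the points. The Klf9 panels and Hr 1435950_at show the 8-week points above all 1-week points, Thra 1454675_at shows them below, and the ages overlap for Thrb, Crym, Nrgn, Hr 1422110_at and Thra 1426997_at.

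The receptors were called in opposite directions in the fit described, Thrb and 1 of the Thra probe sets with calls that most alternatives did not keep. Thra encodes the receptor that predominates in most of the rodent brain. Its brighter probe set, 1454675_at, read 1621 and 1703 in the 8-week arrays labelled male and 1703 and 1480.4 in those labelled female, against a lowest value of 2089.6, a median of 2632 and a highest of 2860.1 at 1 week. All 8-week values lay below all 1-week values. The means were 1627 ± 105 at 8 weeks (SD, n = 4) and 2513 ± 332 at 1 week (SD, n = 6), and Thra fell by this probe set (-0.61 ± 0.10, limma adjusted p = 0.000575). The other Thra probe set, 1426997_at, read 222 and 235 in the 8-week arrays labelled male and 197 and 219.6 in those labelled female, against 208 at the lowest, 288 in the median and 326 at the highest at 1 week. Here the ages overlapped through replicate 3 labelled female at 1 week, the lowest of its age. The change was smaller (-0.32 ± 0.11, limma adjusted p = 0.0366).

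Without normalization the typical probe set changed by 0.47. On that deposited scale 1454675_at changed by -0.10 (limma adjusted p = 0.508) and 1426997_at by 0.18 (limma adjusted p = 0.257). The calls of Thra, and the direction of 1426997_at, thus rest on the scaling between arrays. With median scaling or scaling to spike-in controls, 1454675_at kept its call (-0.62 and -0.47, limma adjusted p = 0.000922 and 0.0322). With the same scalings 1426997_at lost its call (-0.30 and -0.16, limma adjusted p = 0.0624 and 0.524). With no filter on dim probe sets it lost its call as well (limma adjusted p = 0.0618). The call of 1426997_at was also lost on leaving out any one of 8 arrays, all but replicate 2 labelled male and replicate 3 labelled female at 1 week, with adjusted p from 0.00393 to 0.114 over the 10 omissions. It was also lost without the 4 opposed arrays, at -0.18 (limma adjusted p = 0.403), and without all 5, at -0.43 (limma adjusted p = 0.0566).

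Thrb is expressed in the hypothalamus, pituitary and sensory organs, among other tissues, and its expression rises after birth in rodents. Thrb was read by 1 probe set, 1422202_at. It read 117 and 114 in the 8-week arrays labelled male and 147 and 114 in those labelled female, against 75.7 at the lowest, 97.6 in the median and 122 at the highest at 1 week. One 8-week array, replicate 1 labelled female, stood above the rest, and the other 8-week arrays lay within the 1-week range. That array also had the highest summed pituitary markers, 13556, against 1279 in replicate 2 labelled female and 4814 and 1059 in those labelled male. The part of this in its Thrb value was not tested. The means were 123 ± 16.1 at 8 weeks (SD, n = 4) and 98.1 ± 19.6 at 1 week (SD, n = 6), and the rise just passed (0.28 ± 0.10, limma adjusted p = 0.0494). The call was lost in 15 of 22 alternatives and held in 7. With all 10 arrays it was lost with age as the only term (limma adjusted p = 0.0817) and with spike-in scaling (limma adjusted p = 0.0724). It was also lost with an intensity trend, with no filter and with a pseudocount of 100 (limma adjusted p = 0.0645, 0.0789 and 0.0672). Leaving out any one of 7 arrays ended the call, namely replicates 2 and 3 labelled female and 1 and 3 labelled male at 1 week, and all 8-week arrays but replicate 2 labelled female, with adjusted p from 0.0221 to 0.192 over the 10 omissions. Without the 4 opposed arrays the change was 0.29 (limma adjusted p = 0.220), and without all 5 it was 0.05 (limma adjusted p = 0.857).

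Ratios of deposited signals within an array do not depend on the scale of the array. The Thrb signal over that of Thra 1454675_at ran from 0.0654 to 0.0933 at 8 weeks, with a median of 0.0717, and from 0.0324 to 0.0487 at 1 week, with a median of 0.0366. Over Thra 1426997_at it ran from 0.475 to 0.754 at 8 weeks and from 0.272 to 0.459 at 1 week. The ages did not overlap in either ratio, so the probe sets of the receptors changed unequally. The size of such a ratio is not the ratio of receptor transcripts, since probe sets differ in brightness per transcript. These ratios were chosen after the values had been seen and were not tested.

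**Figure D2:**
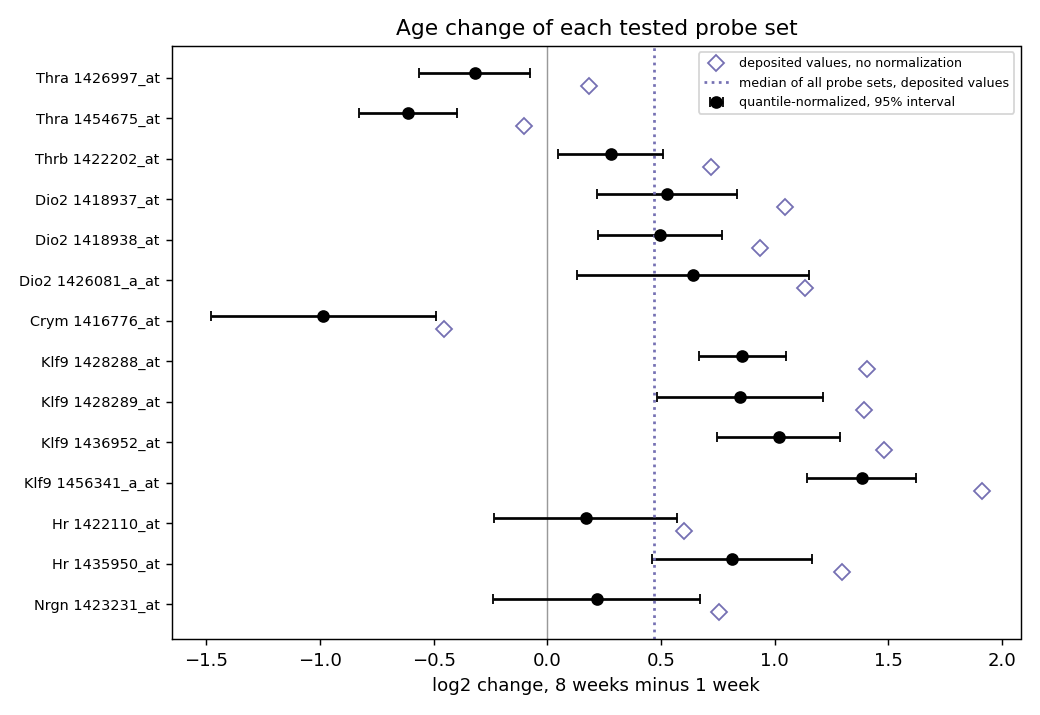
Log2 change, 8 weeks minus 1 week, of each tested probe set after quantile normalization with its 95% interval (black circles) and on the deposited scale without normalization (open diamonds), with the median of all probe sets on the deposited scale as a dotted line at 0.47. The Thra and Crym diamonds lie left of the dotted line, and the Klf9 and Dio2 diamonds right of it.

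Dio2 rose in each of its 3 probe sets. Probe set 1418937_at read 367 and 374 in the 8-week arrays labelled male and 325 and 407 in those labelled female, against 166 at the lowest, 262 in the median and 294 at the highest at 1 week. The means were 368 ± 33.5 at 8 weeks (SD, n = 4) and 251 ± 49.4 at 1 week (SD, n = 6). Their ratio was 1.46 and the change 0.53 ± 0.14 (limma adjusted p = 0.0102). The 8-week arrays all stood above the 1-week arrays, as they did for both other probe sets. Probe set 1418938_at averaged 153 ± 23.1 at 8 weeks and 102 ± 16.5 at 1 week, a change of 0.49 ± 0.12 (limma adjusted p = 0.007745). Probe set 1426081_a_at read 254 in both 8-week arrays labelled male and 223 and 287 in those labelled female, against 65.0 at the lowest, 174 in the median and 208 at the highest at 1 week (0.64 ± 0.23, limma adjusted p = 0.0419). Its lowest 1-week value, in replicate 3 labelled female, lay below the next at 147.

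The call of 1426081_a_at was lost on leaving out any 1 array other than replicates 1 and 3 labelled female at 1 week, with adjusted p from 0.00818 to 0.131, while the other Dio2 calls held in all 10 omissions. Without the 4 opposed arrays 1426081_a_at changed by 0.96 (limma adjusted p = 0.0602), and without all 5 by 0.27 (limma adjusted p = 0.235). Without all 5, 1418937_at changed by 0.34 (limma adjusted p = 0.131). The summed astrocyte markers given above were higher in every 8-week array than in every 1-week array, and their part in the Dio2 result was not tested. Among the astrocyte markers 5 of 10 rose and 1 fell, where 21.9% of all genes tested rose and 24.0% fell.

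Crym encodes mu-crystallin, a cytosolic protein that binds triiodothyronine and is abundant in forebrain neurons. Its probe set, 1416776_at, read 353 and 191 in the 8-week arrays labelled male and 370.1 and 259 in those labelled female, against 321 at the lowest, 639 in the median and 765 at the highest at 1 week. All but 1 of the 1-week arrays stood above all 8-week arrays, the exception being replicate 3 labelled female. The means were 293 ± 83.9 at 8 weeks (SD, n = 4) and 608 ± 161 at 1 week (SD, n = 6), and Crym fell (-0.98 ± 0.22, limma adjusted p = 0.00482). Among all probe sets tested, 3.09% had a lower change. The fall kept its call on the deposited scale (-0.46 ± 0.19, limma adjusted p = 0.0402) and in each omission of 1 array, where the change ran from -1.18 to -0.78. Without the 4 opposed arrays it was -0.77 with an adjusted p of 0.143 by limma.

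Klf9, a zinc finger transcription factor that is a direct target of the hormone receptor in rodent brain, held the largest rises among the members. Probe set 1428288_at read 1858 and 2021 in the 8-week arrays labelled male and 1789.6 and 1786 in those labelled female, against 822 at the lowest, 1071 in the median and 1173 at the highest at 1 week. The groups were far apart relative to their spread, with means of 1864 ± 110.1 at 8 weeks (SD, n = 4) and 1024 ± 134 at 1 week (SD, n = 6). The change was 0.86 ± 0.09 (limma adjusted p = 3.24e-05). Probe set 1456341_a_at read 663 and 788 in the 8-week arrays labelled male and 624 and 734 in those labelled female, against 199 at the lowest, 264 in the median and 292 at the highest at 1 week. This was the largest change of any member probe set, with means in a ratio of 2.75 and a change of 1.38 ± 0.11 (limma adjusted p = 6.36e-06), and 98.7% of all probe sets tested had a lower change.

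The other tested Klf9 probe sets ran the same way. Probe set 1436952_at averaged 224 ± 20.5 at 8 weeks and 99.5 ± 21.3 at 1 week (1.02 ± 0.12, limma adjusted p = 9.44e-05). Probe set 1428289_at averaged 1223 ± 255 at 8 weeks and 667 ± 123 at 1 week (0.85 ± 0.16, limma adjusted p = 0.00193), and the arrays labelled female held both its lowest and its highest 8-week values, 889 and 1501. All 4 probe sets had every 8-week array above every 1-week array. Of the 3 dim Klf9 probe sets, 1436763_a_at averaged 118 ± 22.0 at 8 weeks and 52.2 ± 11.1 at 1 week without overlap, 1422264_s_at 33.0 ± 13.7 and 18.3 ± 4.92, and 1452723_at 38.2 ± 2.37 and 43.8 ± 12.6. They had no test in the filtered fit. With no filter, 1436763_a_at rose (0.89 ± 0.14, limma adjusted p = 0.00141) and the others did not pass, at 0.41 and -0.11.

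The Klf9 calls of 1428288_at, 1456341_a_at and 1436952_at held in all alternatives that could test them, with changes from 0.79 to 1.40, from 1.18 to 1.91 and from 0.70 to 1.48. That of 1428289_at was lost once, without all 5 arrays (0.63, limma adjusted p = 0.109). Over Thra 1454675_at, the signal ratio of Klf9 1428288_at ran from 1.05 to 1.22 at 8 weeks and from 0.349 to 0.443 at 1 week.

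Hr encodes hairless, a nuclear receptor corepressor that is itself induced by thyroid hormone in rodent brain. Its probe sets disagreed. Probe set 1435950_at read 218 and 328 in the 8-week arrays labelled male and 224 and 291 in those labelled female, against 88.7 at the lowest, 142 in the median and 171 at the highest at 1 week. All 8-week values lay above all 1-week values, with means of 265 ± 53.4 at 8 weeks (SD, n = 4) and 141 ± 28.1 at 1 week (SD, n = 6), and the probe set rose (0.81 ± 0.16, limma adjusted p = 0.00205). The dimmer 1422110_at read 67.7 and 151 in the 8-week arrays labelled male and 109 and 118 in those labelled female, against 73.1 at the lowest, 86.9 in the median and 121 at the highest at 1 week. Its groups overlapped, with 8-week values both below and above the 1-week range, and it did not pass (0.17 ± 0.18, 95% interval -0.23 to 0.57, limma adjusted p = 0.479). Its direction rested on single arrays: it changed by 0.40 without replicate 1 labelled male at 8 weeks and by -0.06 without replicate 2 labelled male at 8 weeks. It passed without normalization, at 0.60 against the 0.47 of the typical probe set. The call of 1435950_at held in all its alternatives, with changes from 0.60 to 1.29.

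Nrgn encodes neurogranin, a postsynaptic protein that binds calmodulin and is abundant in forebrain neurons, and it responds to thyroid hormone in the developing rodent forebrain. Its probe set, 1423231_at, read 1830 and 1648 in the 8-week arrays labelled male and 2025 and 2132 in those labelled female, against 895 at the lowest, 1781 in the median and 2227 at the highest at 1 week. The 8-week arrays lay within the 1-week range. The means were 1909 ± 214 at 8 weeks (SD, n = 4) and 1702 ± 499 at 1 week (SD, n = 6), and no change was called (0.22 ± 0.20, 95% interval -0.24 to 0.67, limma adjusted p = 0.419). The interval does not show equal levels. On the deposited scale Nrgn passed at 0.76, against the 0.47 of all probe sets.

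The 1-week arrays varied more than the 8-week arrays for Nrgn and Dio2 1426081_a_at. Replicate 3 labelled female at 1 week was the lowest of its age for Nrgn, Crym, Hr 1435950_at, Dio2 1418937_at and 1426081_a_at, both Thra probe sets and Klf9 1428288_at and 1456341_a_at. That array also had the lowest summed forebrain neuron markers at 1 week, 376, and the highest summed cerebellar neuron markers, 8033, whereas replicate 1 labelled male had 829 and 2456 and replicate 1 labelled female 1056 and 2956. It was also the array that carried both sex transcripts, and 1 of the 2 left at 1 week without the 4 opposed arrays. The part of these features in the members' values was not tested. Without replicate 3 labelled female, the change of Nrgn was 0.05 and that of Crym -1.14. The ratio of the Crym signal to the Nrgn signal ran from 0.116 to 0.192 at 8 weeks and from 0.303 to 0.392 at 1 week, without overlap, and in replicate 3 labelled female it was 0.364.

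**Figure D3:**
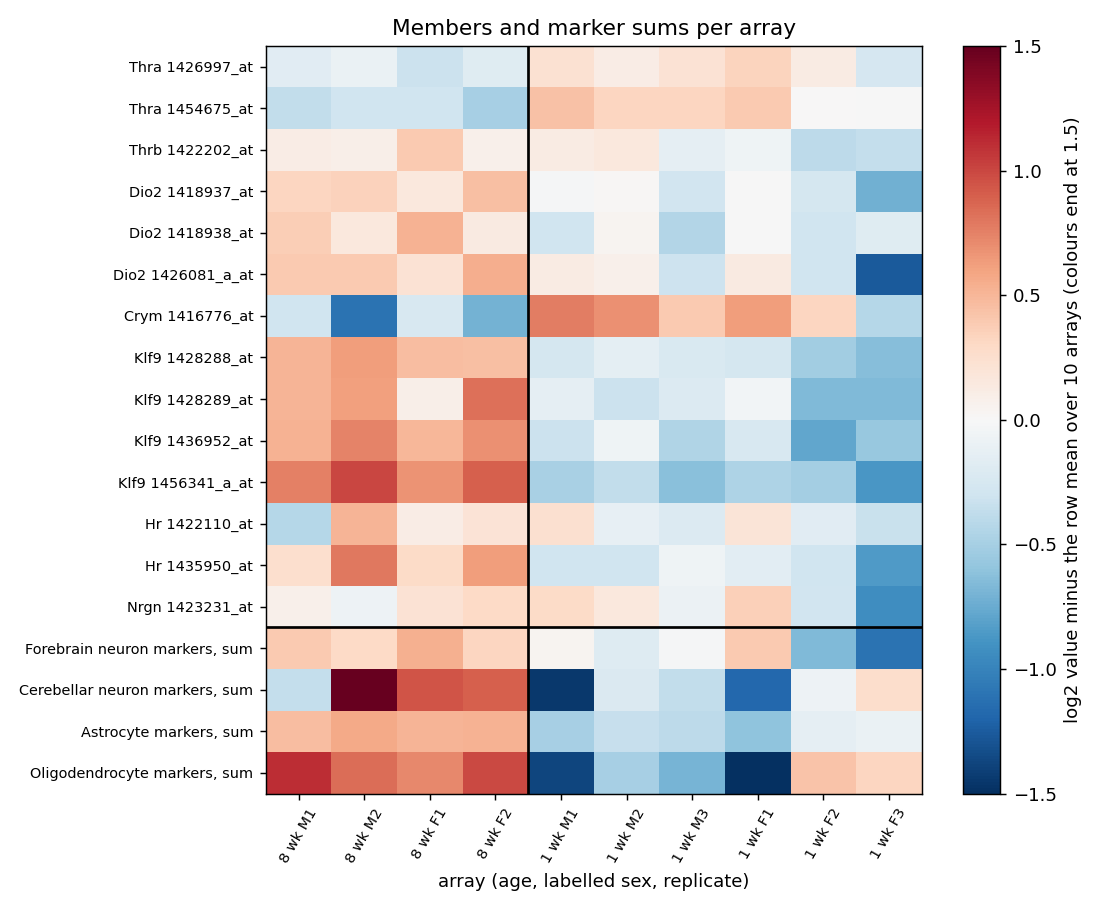
Log2 value minus the row mean over the 10 arrays, for the 14 tested probe sets and below them for the summed intensity of 4 marker lists, with arrays of 8 weeks on the left (M, labelled male; F, labelled female; the number is the replicate). The column of 1-week replicate F3 is low for Nrgn, Dio2 1426081_a_at, Hr 1435950_at and the forebrain markers.

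The second factor was labelled sex. Between arrays labelled male and female at 8 weeks, 0 of the 14 member probe sets passed, and 0 of all 13576 did, by limma (345 at an unadjusted p under 0.05). That 0 misses a known sex difference: Xist 1436936_s_at differed by -3.32 ± 0.84 (male minus female) without passing in this fit, whose spread includes the 1-week groups of mixed sex transcripts. A fit of the 8-week arrays alone called 2 probe sets, both of Xist, and 0 members. The largest difference among the members was for Nrgn, at 1739 against 2078 on average (male minus female -0.26 ± 0.32). Within labels, 32.1% of all probe sets changed with age in arrays labelled male and 30.6% in those labelled female, beside 7 and 8 of the 14 members. The change with age did not differ by label in any member at an adjusted p under 0.05 by limma, nor in any of the 13576 probe sets (759 at an unadjusted p under 0.05). Thrb changed by 0.05 ± 0.15 in arrays labelled male and by 0.51 ± 0.15 in those labelled female, a difference of -0.46 ± 0.21 that did not pass (limma adjusted p = 0.857). Since most labels at 1 week were opposed by the sex transcripts, these comparisons across ages cannot be read as sex.

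Other steps of the pathway went in mixed directions. Of 10 genes of hormone transport and metabolism, 6 were measured, of which 1 rose and 3 fell (3 and 1 on the deposited scale), where 21.9% of all 8148 genes tested rose and 24.0% fell. Their median change was -0.20, against -0.02 over all genes. On the deposited scale 63.9% of all probe sets tested passed as higher. Slco1a4, an organic anion transporter of the blood-brain barrier, rose (554 ± 67.5 at 8 weeks and 194 ± 42.8 at 1 week; 1.42 ± 0.15). Slco1c1, which carries thyroxine across the barrier in rodents, fell (-0.42 ± 0.11), as did the amino acid transporter gene Slc7a5, whose product also carries thyroid hormones (363 ± 52.4 at 8 weeks and 722 ± 115 at 1 week; -0.94 ± 0.12), and its partner chain Slc3a2 (-0.25 ± 0.08). Ttr, the thyroxine-binding transthyretin of choroid plexus, averaged 7086 ± 2203 in the older arrays (8 weeks) and 5468 ± 520 in the younger (1 week), without passing (limma adjusted p = 0.172). Slc7a8, another amino acid transporter gene, changed by -0.15 without passing (limma adjusted p = 0.101) and passed as higher on the deposited scale, at 0.31. Dio1 was under the filter, and the listed genes not named here, with Dio3, were not analysed here. On the deposited scale Slco1c1 changed by 0.12 and Slc3a2 by 0.30, neither passing. Without the 4 opposed arrays Slco1c1 changed by -0.40 (limma adjusted p = 0.101) and Slc3a2 by -0.19 (limma adjusted p = 0.237), and without all 5 Slc3a2 changed by -0.22 (limma adjusted p = 0.289). Slc3a2 also lost its call without any one of 4 arrays, replicate 2 labelled male and replicate 1 labelled female at 8 weeks and replicate 3 labelled male and replicate 2 labelled female at 1 week.

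Of the receptor partners and coregulators, 13 of 18 were measured, of which 3 rose and 0 fell, with a median of 0.11. Among all 8148 genes tested 21.9% rose and 24.0% fell, so the share that rose was near that of all genes. Kat2b, a histone acetyltransferase, rose most (503 ± 123 at 8 weeks and 211 ± 31.2 at 1 week; 1.15 ± 0.14). Crebbp, another acetyltransferase, changed by 0.37 ± 0.11 and Tbl1xr1, a subunit of the corepressor complex, by 0.27 ± 0.07. The retinoid X receptor genes Rxra (0.11 ± 0.25) and Rxrb (0.34 ± 0.15) did not pass. On the deposited scale 12 of the 13 passed as higher, where 63.9% of all probe sets tested did. Crebbp lost its call without replicate 2 labelled male (0.30) or replicate 2 labelled female (0.34) at 8 weeks. Tbl1xr1 lost its call without the 4 opposed arrays (0.27, limma adjusted p = 0.0828) and without all 5 (0.21, limma adjusted p = 0.227).

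Neuronal genes reported as responsive to the hormone in rodent brain were listed as 20. Of these 15 were measured, 9 rose and 2 fell, with a median of 0.46. Among all 8148 genes tested, 21.9% rose and 24.0% fell. The lists were chosen with earlier results of these data known, so their shares are no independent comparison with all genes. Calb1 and Pcp2 of this list are also among the cerebellar neuron markers summed above. The largest rises were Egr1, an activity-induced transcription factor gene (1.49 ± 0.17), Rora, a nuclear receptor of Purkinje cells (1.41 ± 0.21), Rasd2, a small GTPase of the striatum (1012 ± 277 at 8 weeks and 374 ± 50.3 at 1 week; 1.36 ± 0.15), and Calb1, a calcium buffer (1.24 ± 0.23). Tnc, a matrix glycoprotein (54.9 ± 9.91 at 8 weeks and 282 ± 49.6 at 1 week; -1.95 ± 0.12), and Ncam1, a neural adhesion molecule (-1.69 ± 0.08), fell, and both are repressed by the hormone in the rodent brain. Myelin genes, whose onset the hormone times, held 7 measured members of 9 listed. Of these 5 were higher and 0 lower, beside the same 21.9% and 24.0% of all genes, with a median of 1.44. These are the same 9 genes as the oligodendrocyte markers summed above, so the list is no separate measurement from that marker sum, which ran from 2391 to 11499 among 1-week arrays. Mobp (3.72 ± 0.76), Mal (2.81 ± 0.24), Mag (1.64 ± 0.39) and Cldn11 (1.44 ± 0.31) rose most. Thyroid hormone itself was not measured, and its part in these changes was not tested.

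**Figure D4:**
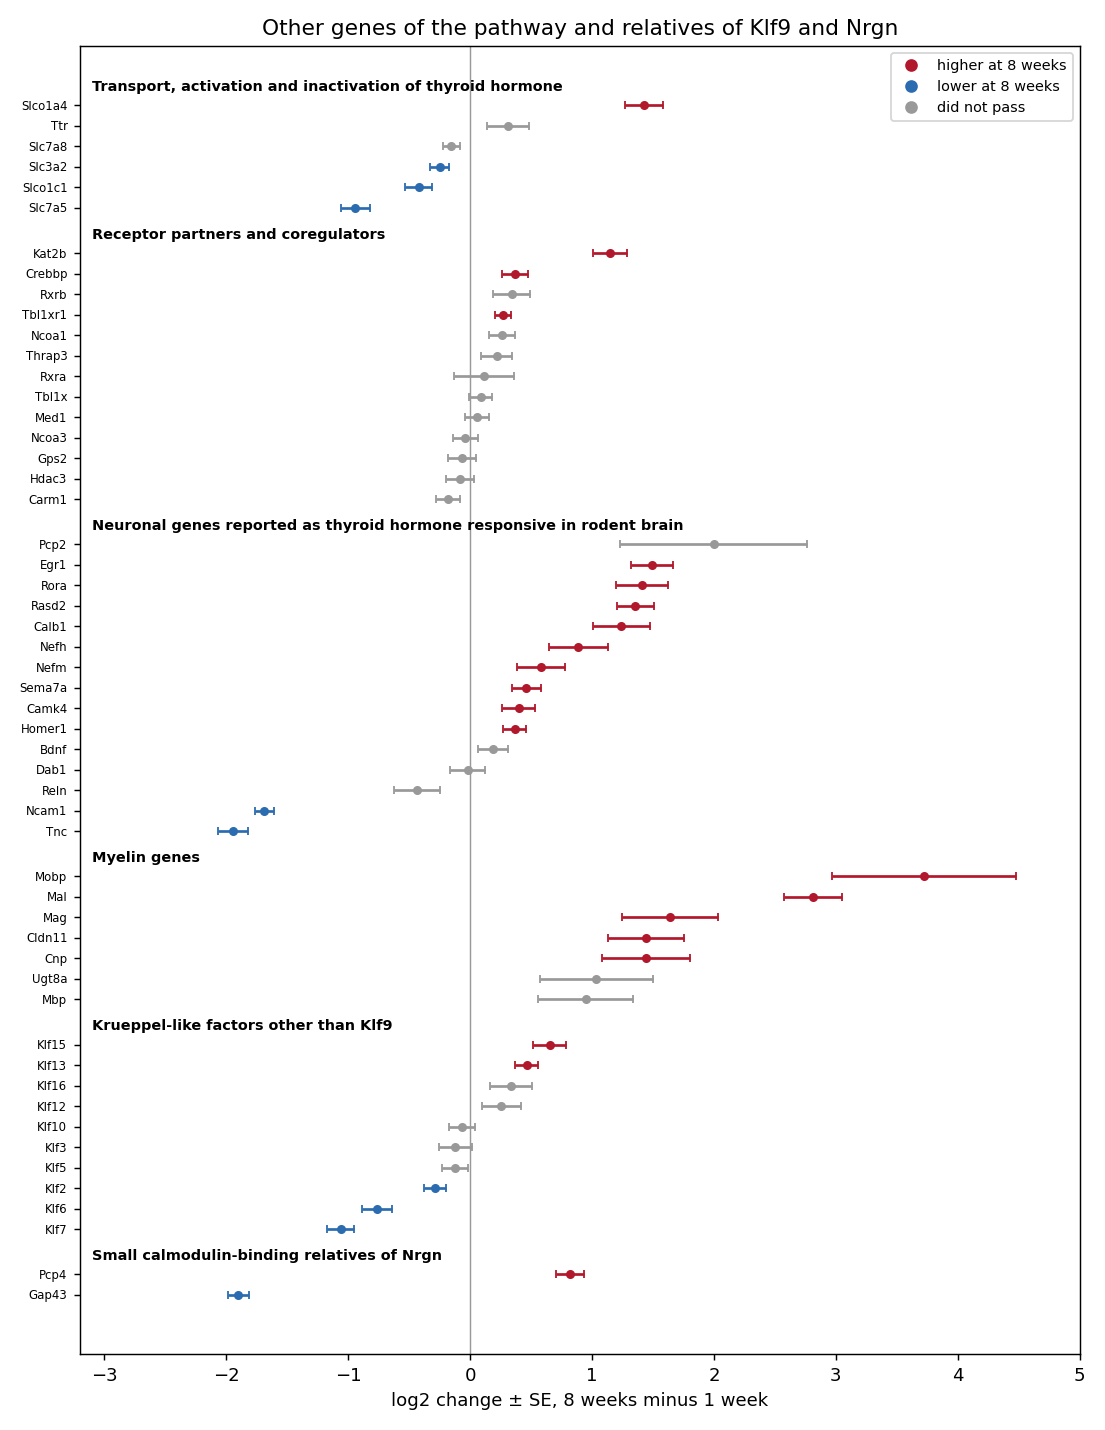
Log2 change ± SE, 8 weeks minus 1 week, of each measured gene of the pathway lists and of the relatives of Klf9 and Nrgn, a point per gene at its brightest probe set, coloured by limma call. Transport genes lie on both sides of 0, and the Krueppel-like factors run from -1.06 for Klf7 to 0.65 for Klf15.

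The other Krueppel-like factor genes, relatives of Klf9, ran in both directions. Of 13 listed 10 were measured, of which 2 rose and 3 fell, with a median of -0.09, beside the 21.9% and 24.0% of all genes. On the deposited scale 7 passed as higher and 1 as lower, where 63.9% of all probe sets tested passed as higher. Klf15 (136 ± 28.4 at 8 weeks and 77.4 ± 13.0 at 1 week, a change of 0.65 ± 0.13) and Klf13 (0.47 ± 0.09) rose. The ages overlapped for Klf13, which averaged 932 ± 305 at 8 weeks (644 to 1249) and 645 ± 64.9 at 1 week (551 to 704). Its SE measures the spread within labels, not that over all arrays of an age. Klf13 lost its call without the 4 opposed arrays (0.64, limma adjusted p = 0.108) and without all 5 (0.61, limma adjusted p = 0.246), and Klf15 without all 5 (0.53, limma adjusted p = 0.134). Klf7, a factor of growing axons (386 ± 13.6 at 8 weeks and 839.96 ± 117 at 1 week; -1.06 ± 0.11), Klf6 (-0.76 ± 0.12) and Klf2 (-0.29 ± 0.09) fell. On the deposited scale Klf6 changed by -0.29 without passing and Klf2 by 0.13. Klf2 changed by -0.13 without the 4 opposed arrays (limma adjusted p = 0.505) and by -0.32 without all 5 (limma adjusted p = 0.108). It also lost its call without any one of 5 arrays, at 8 weeks replicate 2 labelled male and both labelled female, and at 1 week replicate 2 of each label. Klf9 1428288_at changed by 0.86. Of the small calmodulin-binding relatives of Nrgn, Gap43, a growth cone protein that shares its calmodulin-binding motif, was 846 ± 92.1 at 8 weeks and 3225 ± 299 at 1 week and fell (-1.90 ± 0.09). Pcp4, a Purkinje cell protein, was 3852 ± 519 at 8 weeks and 2166 ± 255 at 1 week and rose (0.82 ± 0.12).

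The genes whose log2 values ran most like each member over the 10 arrays were named by Pearson correlation, as a description, since the arrays share ages and scaling. For Thra these were Ppp3cb and C9orf72 (r of 0.988 each), for Thrb Cpd (0.935) and Msx1 (0.919), for Dio2 Bsdc1 (0.959) and Psd3 (0.952), and for Crym Usp49 (0.978) and Nsg2 (0.968). For Klf9 they were Mink1 (0.989) and Ank (0.984), for Hr Abcf2 (0.967) and Spock1 (0.965), and for Nrgn Arhgef12 (0.934) and Pde2a (0.917). Each was taken from the brightest probe set of the member and of the other gene.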

How the data were processed

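Brain RNA was measured on 10 MOE430A arrays. The authors deposited 1 intensity per probe set and array on a linear scale; the summarisation software is not given in the sources used here. The values were not comparable in scale between arrays, so the deposited intensities were quantile-normalized and log2(intensity + 24) was fitted with limma 3.58.1 in R 4.3.3. The fit had 4 groups of age and labelled sex, the age change being the mean over labels, with Benjamini-Hochberg adjustment at 0.05 over 13576 probe sets. These were the probe sets whose mean over all arrays was above the 40th percentile. The pseudocount of 24 is the 20th percentile of intensity. Array controls (64) were left out. Of the other probe sets 20380 carry 1 symbol, 691 several and 1555 none, and only those with 1 were named. Other genes were read at their brightest probe set. Named genes were all members, the called or largest members of each list, and the 2 genes most like each member. The members and lists were chosen with earlier results of these data known. Arrays of a group correlated at 0.973 to 0.981, and no pair was a repeat. The age comparison was also run on simulated data in which 200 of 22626 probe sets were changed. It recovered 44% of changes of 0.5 and 89% of changes of 1 (log2), with 7 false among 140 calls. In the real data 46.0% of the probe sets tested were called, so these rates do not carry over to it. Alternatives changed the pseudocount, scaling, filter, block, trend, weights and arrays. The number of arrays limits precision. Listed genes with no probe set of their own symbol, among them Dio3 and Itpr1, were not analysed here. No hypothesis about a cause was tested.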

Additional observations from a re-analysis of the deposited data

Results flagged for a closer look

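Of 82 sets of 4 or 6 arrays examined, 8 held an array whose gap to the others was wide relative to the range of its group. The gaps were measured on log2 values, with a cut-off that about 1 in 20 sets of independent normal values would pass. These sets share arrays and some share genes, and the listed genes were picked for large changes. The count therefore cannot be compared with that share. Among the members, Thrb read 147 in replicate 1 labelled female at 8 weeks, with the next array at 117. In replicate 3 labelled female at 1 week, Dio2 1426081_a_at read 65 with the next at 147, Crym 321 with the next at 558, and Hr 1435950_at 88.7 with the next at 142. The dim Klf9 probe set 1452723_at read 68.9 in replicate 1 labelled male at 1 week, with the next at 43.2. Among the other genes, all at 8 weeks, Slco1a4 read 454 in replicate 2 labelled female (next 575), Mal 1415 in replicate 2 labelled male (next 1664) and Gap43 984 in replicate 1 labelled female (next 809.7). No cause was tested.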

How the results depend on the processing

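The age comparison called 2993 probe sets higher and 3253 lower at 8 weeks, and 12 of the 14 members. With age as the only term it called 6309 and 11 members. In that model, without the 4 opposed arrays (2 left at 1 week) it called 4042 and 8 members, and without all 5 that did not match (1 left) 3722 and 7 members. Omitting 1 array in turn gave 9 to 11 member calls. Scaling moved the split of calls: 47.9% were higher after quantile normalization, 71.1% after scaling to spike-in controls (median change 0.14) and 93.2% on the deposited scale (median 0.47). On the deposited scale these changes turned positive: Thra 1426997_at 0.18, Slco1c1 0.12, Slc7a8 0.31, Slc3a2 0.30, Ncoa3 0.43, Hdac3 0.46, Carm1 0.35, Dab1 0.50, Klf2 0.13, Klf3 0.41, Klf5 0.32 and Klf10 0.40, and, passing on neither scale, Reln 0.10 and Gps2 0.35; the cause was not tested. The counts for labelled sex at 8 weeks and for the difference in age change by label, 0 in the fit described, were 1 each on the deposited scale and 5 each with spike-in scaling; omitting 1 array gave 0 to 2 in each, and the 8-week arrays alone gave 2 for labelled sex. With the replicate number as a block, 2847 rose and 3054 fell, with 7 and 3 of the members, and Thrb (0.21) and Dio2 1426081_a_at (0.38) were no longer called. The labels do not say what the numbers share. Deviations of same-numbered arrays correlated between 0.0980 and 0.193 at 1 week, where each of the 6 arrays correlated best with its own number (other pairs -0.163 to 0.0820), and at -0.00405 at 8 weeks. At 8 weeks the other pairs held the same value with its sign turned, 0.00405, as deviations of 2 arrays per label mirror each other. These values do not settle whether the numbers mark something shared. The fit described did not use the numbers as pairs. The calls of Klf9 1456341_a_at, 1428288_at and 1436952_at, Hr 1435950_at and Dio2 1418938_at held in every alternative that could test them.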
